A study of Mus musculus with 8 samples.

Results

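The HOX cluster genes encode the homeodomain transcription factors of the 4 mouse clusters HoxA, HoxB, HoxC and HoxD. They were taken here as every gene whose annotated symbol is Hoxa, Hoxb, Hoxc or Hoxd followed by a number alone. The mouse gene table lists 39 such genes, 11 in HoxA, 10 in HoxB, 9 in HoxC and 9 in HoxD. Of these, 33 had a probe set (a group of short probes against 1 transcript) annotated to them alone, among 18193 genes measured: 9 of HoxA, 9 of HoxB, 7 of HoxC and 8 of HoxD. The other 6 were not analysed here.

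RNA came from cultured mouse embryonic fibroblasts (MEFs) of strain C57BL/6 at passage 13. There were 4 groups of 2 Affymetrix arrays each. Control cells and Stat5a/b-null cells were each measured without and with growth hormone (GH). STAT5A and STAT5B are the transcription factors through which the GH receptor signals in many cells. The cells of all 8 arrays were starved for 5 h, and GH was given at 1 ug/ml for 2 h. Arrays carry the replicate numbers 2 and 3, and values are given in that order. The labels call them biological replicates and do not name separate embryos or cultures, so that p-values describe the spread among these arrays, which may be technical. How the null alleles were made, the age of the embryos, the body region the cells came from and the number of embryos per genotype are not stated in the labels, so a difference between the genotypes and a difference between 2 culture isolates cannot be told apart.

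HOX genes lie in each cluster in the order of their paralog numbers, and along the body axis low numbers are active from the head end and high numbers towards the tail and the limb tips. Fibroblasts keep a HOX pattern typical of their body site in culture, so the pattern is used to read the positional origin of such cells. HOX proteins bind DNA together with TALE homeodomain proteins (PBX, MEIS and PKNOX), and Polycomb and Trithorax complexes hold the clusters silent or active.

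Promoter windows of 250 bases upstream of the annotated start were found in RefSeq (build GRCm38.p6) for 19 of the 33 genes, 21 windows in all. The 5 shown belong to Hoxa7, Hoxa9 and Hoxa10, neighbours in HoxA between which the direction of the genotype difference turned, and to Hoxd10, a paralog of Hoxa10 in another cluster that moved the same way. They are printed 5′ to 3′ in the direction of transcription, with each CG dinucleotide (CpG) in capitals.
Hoxa7, chr6:52218574-52218823, minus strand: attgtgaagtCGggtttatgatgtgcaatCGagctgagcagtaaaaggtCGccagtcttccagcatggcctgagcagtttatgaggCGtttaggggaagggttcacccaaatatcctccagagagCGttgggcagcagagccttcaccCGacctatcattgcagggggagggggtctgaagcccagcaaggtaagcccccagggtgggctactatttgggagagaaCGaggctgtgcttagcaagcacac
Hoxa9, chr6:52227371-52227620, minus strand: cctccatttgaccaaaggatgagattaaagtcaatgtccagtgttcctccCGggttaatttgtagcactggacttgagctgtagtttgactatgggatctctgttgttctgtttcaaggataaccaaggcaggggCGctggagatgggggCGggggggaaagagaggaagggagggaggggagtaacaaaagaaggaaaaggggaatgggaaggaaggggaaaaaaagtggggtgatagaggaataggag
Hoxa10, upstream start, chr6:52240855-52241104, minus strand: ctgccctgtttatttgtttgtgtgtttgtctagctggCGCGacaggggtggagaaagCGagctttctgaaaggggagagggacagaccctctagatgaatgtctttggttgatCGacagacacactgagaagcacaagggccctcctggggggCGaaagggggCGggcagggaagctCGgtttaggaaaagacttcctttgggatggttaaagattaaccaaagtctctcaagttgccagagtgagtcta
Hoxa10, downstream start, chr6:52234940-52235189, minus strand: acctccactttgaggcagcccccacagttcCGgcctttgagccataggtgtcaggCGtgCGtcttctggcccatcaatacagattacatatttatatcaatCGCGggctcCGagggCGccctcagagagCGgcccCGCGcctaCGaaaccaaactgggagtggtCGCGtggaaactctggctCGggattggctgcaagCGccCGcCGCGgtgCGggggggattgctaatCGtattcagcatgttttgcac
Hoxd10, chr2:74691641-74691890, plus strand: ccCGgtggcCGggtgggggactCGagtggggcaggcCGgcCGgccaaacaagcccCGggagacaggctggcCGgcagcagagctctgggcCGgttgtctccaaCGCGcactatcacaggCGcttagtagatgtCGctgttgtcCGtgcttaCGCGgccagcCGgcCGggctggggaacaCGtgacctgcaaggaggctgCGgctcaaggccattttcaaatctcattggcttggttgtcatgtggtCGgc
The Hoxa7 window held 7 CpG, the Hoxa9 window 3, the Hoxa10 windows 7 and 20, and the Hoxd10 window 20. Over the 21 windows the count ran from 2 to 35 with a median of 13, against a median of 6 over all 32851 mouse windows of this length. The letters TTCNNNGAA, the core of a STAT binding motif, were searched on both strands and found in 0 of the 21 windows, against 7.02% of all windows. TGATNNAT, the core of a PBX and HOX motif, was in 3 of them (14.3%, against 7.68% of all), in Hoxa2, Hoxb1 and 1 window of Hoxd11. TGACAG, a MEIS core, was in 2 (9.52%, against 15.9% of all), in Hoxa2 and Hoxa3. The searched patterns differ in their letters, and a match or its lack describes only these windows.

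Values are deposited on the log2 scale, where a difference of 1 is a change of 2-fold. They carry no detection call, so a gene was called dim in a group when its mean lay under 6.097, the lower quartile over all genes and arrays. Of 39 olfactory receptor genes, which fibroblasts are not known to use, 64.1% lay below that limit. In control cells 27 HOX genes without GH and 28 with GH lay above it (81.8% and 84.8% of 33, against 75.4% and 75.2% of all genes). In null cells 23 did in each GH state (69.7%, against 75.3% and 73.9% of all genes). Averaged over the GH states, 23 HOX genes were above the limit in both genotypes. Hoxa10, Hoxa13, Hoxc10, Hoxd10 and Hoxd11 were above it in control cells alone. Hoxb1, Hoxb13, Hoxd1, Hoxd3 and Hoxd12 were dim in both. For a gene dim in null cells the control values and the direction are given without a size, and for a gene dim in both neither is read.

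The main comparison was null against control, averaged over the GH states. The HOX genes split by position: those numbered 5 to 8 were mostly higher in null cells, and those numbered 9 to 13 mostly lower. Of the 9 genes numbered 9 to 13 that were called lower, 5 were dim in null cells. Hoxa11 and Hoxd13, also among them, lay near the limit. The lowest numbers went up in HoxA and down in HoxB and HoxC. By limma, 26 of the 33 were called at an adjusted p below 0.05 (78.8%, against 54.6% of all genes), 10 higher (27.7% of all genes were) and 16 lower (26.8% of all genes). Of the 26, 19 were above the limit in both genotypes (10 higher and 9 lower), 5 were lower and dim in null cells, and 2 (Hoxd1 and Hoxd3) were dim throughout. The median size of the difference, without sign, was 0.47 for HOX genes and 0.22 for all genes. In 10 HOX genes all 4 null arrays lay above all 4 control arrays (23.4% of all genes), and in 13 all 4 lay below (23.6% of all genes, or 47% with both directions). Leaving out any 1 array kept 25 or 26 calls, and the call lost was that of Hoxd1, which went without control GH replicate 3 (adjusted p = 0.0931), without null no-GH replicate 3 (0.0572) and without null GH replicate 2 (0.0683).

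Other genes differed widely between the genotypes, and several cell type markers moved with the HOX genes. The null cells were lower in all 10 listed markers of macrophages and leukocytes, with array means of the list from 9.84 to 10.03 in control and from 6.48 to 6.65 in null cells. Of them Ptprc, the pan-leukocyte antigen CD45, averaged 9.38 in control cells and was dim in null cells, as were 3 others, while Lyz2, macrophage lysozyme, fell by 5.31 ± 0.074 (SE, limma adjusted p = 5.50e-14). Tyrobp and Laptm5, both of leukocytes, were lower by limma too, with differences of -5.15 ± 0.088 and -2.56 ± 0.062. Of 12 fibroblast markers, none of them dim in either genotype, 4 were higher and 1 lower (41.7% called, against 54.6% of all genes). Their median difference was 0.061. Array means of the list ran from 12.98 to 13.07 in control and from 13.85 to 13.98 in null cells. Among the 4 that were higher, the matrix genes Lum and Dcn and the receptor gene Pdgfra rose by 4.35 ± 0.065, 3.61 ± 0.059 and 3.42 ± 0.078. Among the other lists 2 of 10 endothelial markers were higher and 3 lower (50% called). Of 10 epithelial markers 1 was higher and 1 lower (20%), and of 8 neural markers 3 were higher and 2 lower (62.5%). As a check of the genotype labels, Stat5a was lower and dim in null cells (control mean 7.55), and Stat5b fell by 0.81 ± 0.063 from a control mean of 7.97. In whole cultures, fewer cells of a type and less RNA per cell cannot be told apart, and the part of the marker differences in the HOX result was not tested.

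**Figure D1:**
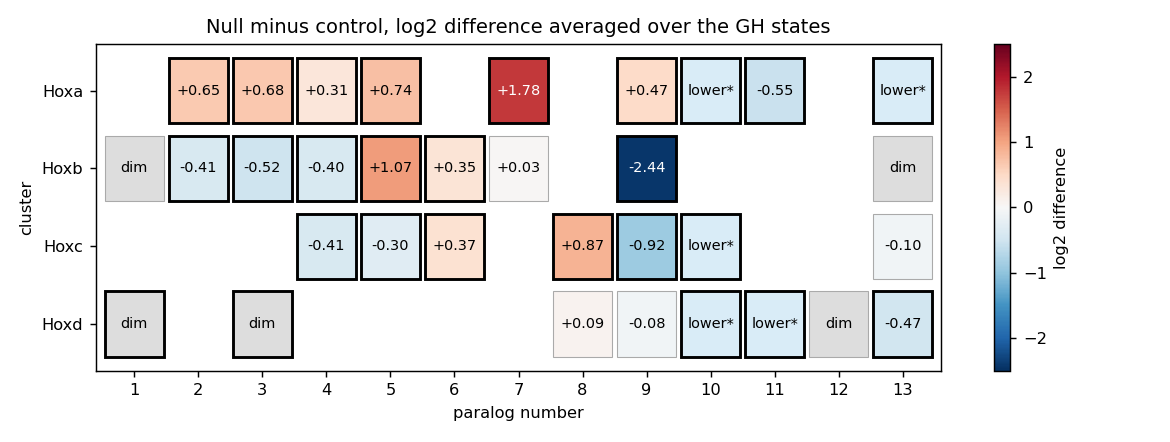
Map of the 4 HOX clusters (rows) by paralog number (columns), coloured and printed with the log2 difference null minus control averaged over the GH states, 4 arrays a genotype. Thick frames mark a limma adjusted p below 0.05, "lower*" a gene called lower and dim in null cells and grey "dim" a gene dim in both genotypes. Places without a box were not analysed here or hold no gene. Among framed genes, red lies in paralogs 5 to 8 (except Hoxc5, which is blue) and along HoxA up to Hoxa9, and blue in paralogs 2 to 4 of HoxB and HoxC and from paralog 9 upwards (except Hoxa9).

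In HoxA all 9 measured genes were called, against 54.6% of all genes. The first 6 in cluster order were higher in null cells and the last 3 lower. Hoxa2, which patterns the hindbrain and pharyngeal arches, stood in control cells at 6.85 and 7.27 without GH and 7.37 and 7.25 with GH, and in null cells at 7.69 and 7.63 without GH and 7.90 and 8.12 with GH. The genotypes did not overlap, and null minus control was 0.65 ± 0.092 (SE, limma adjusted p = 5.18e-05). Hoxa3, needed for thymus and parathyroid, gave 8.49 and 8.45 (control, no GH), 8.64 and 8.53 (control, GH), 8.89 and 8.95 (null, no GH) and 9.33 and 9.66 (null, GH). Its null arrays with GH stood highest, and the averaged difference was 0.68 ± 0.078 (SE, limma adjusted p = 7.85e-06). Another Hoxa3 probe set of similar level gave 0.41 (adjusted p = 0.00424 over all probe sets). Without GH that probe set gave 0.21 and was not called (0.272). The remaining Hoxa3 probe sets, near or under the dim limit, were not called without GH either. Hoxa4, a gene of the neck vertebrae, read 7.13 and 7.17 in control cells without GH, 7.26 and 7.34 with GH, 7.52 and 7.80 in null cells without GH, and 7.40 and 7.43 with GH. Every null array was above every control array, with an averaged difference of 0.31 ± 0.072 (SE, limma adjusted p = 0.00246). Without GH it was 0.51 ± 0.10 higher (adjusted p = 0.00106), whereas with GH the difference was 0.11 ± 0.10 and was not called (adjusted p = 0.427).

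Hoxa5 and Hoxa7 were clearly apart between genotypes. Hoxa5, which acts in lung and the neck to chest transition, stood in control cells at 10.52 and 10.62 without GH and 10.83 and 10.73 with GH, and in null cells at 11.39 and 11.35 without GH and 11.40 and 11.53 with GH. All 4 null arrays lay above the 4 control arrays, by 0.74 ± 0.065 (SE, limma adjusted p = 6.58e-07) on average. Hoxa7, a gene of the thoracic skeleton, gave 9.68 and 9.81 (control, no GH), 9.92 and 9.84 (control, GH), 11.67 and 11.48 (null, no GH) and 11.51 and 11.70 (null, GH). The lowest null array was above the highest control array, and the averaged difference was 1.78 ± 0.073 (SE, limma adjusted p = 6.41e-10), or 3.43-fold, similar without GH (1.83 ± 0.10) and with GH (1.72 ± 0.10). Hoxa9, also known from blood progenitors, read 9.39 and 9.43 in control cells without GH, 9.49 and 9.36 with GH, 9.80 and 9.82 in null cells without GH, and 9.95 and 9.98 with GH. The genotypes did not overlap, and null minus control was 0.47 ± 0.062 (SE, limma adjusted p = 2.76e-05). A dimmer probe set of Hoxa9 gave 0.14 ± 0.064 and was not called (adjusted p = 0.0813 over all probe sets).

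From Hoxa10 on the direction turned. Hoxa10, a gene of the lumbar spine and uterus, stood in control cells at 6.84 and 7.04 without GH and 6.89 and 6.86 with GH, and in null cells at 5.64 and 5.61 without GH and 5.64 and 5.48 with GH. All 4 null arrays were dim and every control array was above the limit (limma adjusted p = 6.23e-09). Hoxa11, a gene of forearm and kidney, gave 6.78 and 6.76 (control, no GH), 6.85 and 7.01 (control, GH), 6.58 and 6.24 (null, no GH) and 6.02 and 6.36 (null, GH). Every null array was below every control array, with an averaged difference of -0.55 ± 0.095 (SE, limma adjusted p = 0.000263). Hoxa13, a gene of digits and the genital tubercle, read 6.40 and 5.84 in control cells without GH, 6.06 and 6.45 with GH, 5.71 and 6.08 in null cells without GH, and 5.41 and 5.54 with GH. Its control arrays lay on both sides of the limit, the genotypes overlapped, and it was called lower (adjusted p = 0.00492) from levels close to the limit.

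In HoxB the genes numbered 2 to 4 were lower in null cells, those numbered 5 and 6 higher, and Hoxb9 lower. Hoxb2, a hindbrain gene, stood in control cells at 10.53 and 10.56 without GH and 10.46 and 10.37 with GH, and in null cells at 9.83 and 9.73 without GH and 10.26 and 10.46 with GH. Some null and control arrays overlapped, and the averaged difference was -0.41 ± 0.068 (SE, limma adjusted p = 0.000201). The difference lay in the cultures without GH, at -0.76 ± 0.096 (adjusted p = 2.74e-05), and with GH it was -0.052 ± 0.096 and not called. Hoxb3, a hindbrain and neck gene, gave 9.91 and 10.17 (control, no GH), 10.08 and 9.96 (control, GH), 9.69 and 9.60 (null, no GH) and 9.45 and 9.29 (null, GH). The genotypes did not overlap, and null minus control was -0.52 ± 0.077 (SE, limma adjusted p = 6.94e-05). A dimmer probe set of Hoxb3 gave -0.15 and was not called. Hoxb4, known for expanding blood stem cells, read 9.53 and 9.39 in control cells without GH, 9.43 and 9.34 with GH, 8.82 and 8.91 in null cells without GH, and 9.10 and 9.27 with GH. Every null array was below every control array, with an averaged difference of -0.40 ± 0.069 (SE, limma adjusted p = 0.000277). Its other probe set gave -0.40. Without GH Hoxb4 was lower at -0.59 ± 0.097 (adjusted p = 0.000241), and with GH it was at -0.20 ± 0.097 and not called.

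The middle genes of HoxB were higher in null cells or near the limit. Hoxb5, a gene of the shoulder girdle and the gut's nerves, stood in control cells at 9.10 and 9.22 without GH and 9.51 and 9.28 with GH, and in null cells at 10.50 and 10.35 without GH and 10.17 and 10.35 with GH. All 4 null arrays lay above the 4 control arrays, by 1.07 ± 0.077 (SE, limma adjusted p = 1.12e-07) on average. That is 2.09-fold. Hoxb6, expressed in lateral mesoderm, gave 10.40 and 10.47 (control, no GH), 10.61 and 10.53 (control, GH), 10.92 and 10.81 (null, no GH) and 10.81 and 10.85 (null, GH). The genotypes did not overlap, and null minus control was 0.35 ± 0.062 (SE, limma adjusted p = 0.000361). Hoxb7 was near the limit in all 4 groups, between 6.18 and 6.66, and was not called.

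Hoxb9, a gene of the rib cage and limb field, read 9.02 and 9.75 in control cells without GH, 8.97 and 9.81 with GH, 6.76 and 6.95 in null cells without GH, and 7.06 and 7.03 with GH. The control arrays spread widely, replicate 3 being above replicate 2 by 0.73 without GH and by 0.84 with GH, the widest gaps between the replicates of any HOX gene in any group (median gap 0.11). The null arrays lay below all of them, and the averaged difference was -2.44 ± 0.17 (SE, limma adjusted p = 9.88e-08), or 5.42-fold lower. The null mean of 6.95 stood 0.85 above the dim limit, so this size rests on a low level in null cells. Leaving out 1 array at a time gave averaged differences between -2.65 and -2.23. Hoxb1 and Hoxb13, at the ends of the cluster, were dim on every array, at 3.89 to 4.02 and 5.25 to 5.46.

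**Figure D2:**
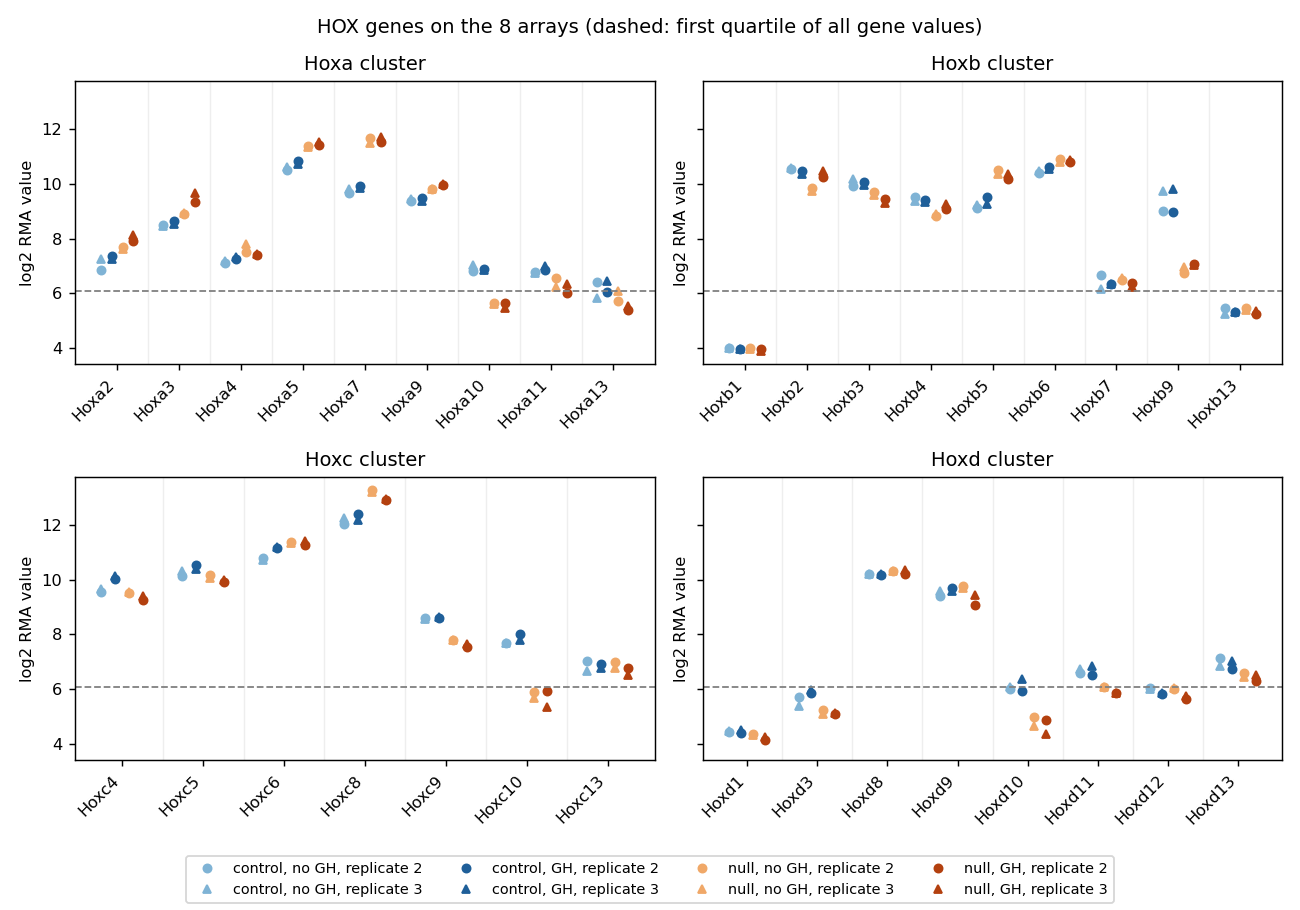
Deposited log2 value of each of the 33 HOX genes on the 8 arrays, 1 panel a cluster, genes in paralog order, colours for the 4 groups and symbols for replicates 2 and 3. The dashed line is the dim limit of 6.097. Null arrays (orange and red) lie above control arrays (blue) at Hoxa7, Hoxb5 and Hoxc8 and below them at Hoxa10, Hoxb9, Hoxc9 and Hoxc10. Levels of different genes come from different probes and are not to be ranked.

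In HoxC, Hoxc4 and Hoxc5 were lower in null cells, Hoxc6 and Hoxc8 higher, and Hoxc9 and Hoxc10 lower. Hoxc4, the lowest-numbered gene of this cluster, stood in control cells at 9.56 and 9.65 without GH and 10.03 and 10.14 with GH, and in null cells at 9.53 and 9.56 without GH and 9.27 and 9.40 with GH. Every null array was below every control array, without GH by a margin smaller than the printed decimals show, with an averaged difference of -0.41 ± 0.064 (SE, limma adjusted p = 0.000131). The difference was seen with GH, at -0.75 ± 0.091 (adjusted p = 2.09e-05), and was -0.062 ± 0.091 and not called without it. Hoxc5, the neighbour of Hoxc4, gave 10.12 and 10.30 (control, no GH), 10.52 and 10.39 (control, GH), 10.17 and 10.07 (null, no GH) and 9.92 and 9.97 (null, GH). Some null and control arrays overlapped, and the averaged difference was -0.30 ± 0.069 (SE, limma adjusted p = 0.00262). Of its 2 other probe sets, 1 was called lower as well (-0.24) and the other was not called (-0.051). With GH the Hoxc5 difference was -0.50 ± 0.098 (adjusted p = 0.000916), and without GH it was -0.089 ± 0.098 and not called. The change of these differences with GH was not called for Hoxa4, Hoxb4, Hoxc5 or Hoxc6 (interaction adjusted p from 0.0874 to 0.156).

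Hoxc6 and Hoxc8 were higher in null cells. Hoxc6, a gene of the upper chest, read 10.80 and 10.72 in control cells without GH, 11.17 and 11.18 with GH, 11.37 and 11.32 in null cells without GH, and 11.26 and 11.41 with GH. The genotypes did not overlap, and null minus control was 0.37 ± 0.064 (SE, limma adjusted p = 0.000256). The highest-reading probe sets of Hoxc6 and Hoxa3 are of kinds that can bind related transcripts as well, by their Affymetrix suffixes. Of the other Hoxc6 probe sets, 1 gave 0.41 and was called and 1 gave 0.056 and was not (adjusted p = 0.504 over all probe sets). Without GH Hoxc6 was 0.58 ± 0.090 higher (adjusted p = 0.000151), and with GH the difference was 0.16 ± 0.090 and not called. Hoxc8, a gene of the lower ribs and forelimb motor neurons, stood in control cells at 12.02 and 12.24 without GH and 12.38 and 12.19 with GH, and in null cells at 13.28 and 13.19 without GH and 12.90 and 12.95 with GH. Every null array was above every control array, with an averaged difference of 0.87 ± 0.074 (SE, limma adjusted p = 4.69e-07). It was 1.83-fold higher with no overlap of the arrays.

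The higher-numbered HoxC genes were lower. Hoxc9, a thoracic gene that represses forelimb fate in motor neurons, gave 8.59 and 8.56 (control, no GH), 8.61 and 8.65 (control, GH), 7.78 and 7.78 (null, no GH) and 7.54 and 7.65 (null, GH). All 4 null arrays lay below the 4 control arrays, with an averaged difference of -0.92 ± 0.061 (SE, limma adjusted p = 5.07e-08). That is 1.89-fold lower. Hoxc10, a gene of the lumbar level and hindlimb, read 7.70 and 7.68 in control cells without GH, 8.0002 and 7.79 with GH, 5.91 and 5.68 in null cells without GH, and 5.94 and 5.37 with GH. Every control array was above the limit and every null array was below it (adjusted p = 7.42e-09). Hoxc13, the hair keratin regulator at the end of the cluster, lay between 6.51 and 7.04 on all arrays with overlapping genotypes and was not called.

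In HoxD 5 of the 8 measured genes were called lower, against 26.8% of all genes. Of these 5, 2 were dim in both genotypes, and the other 3 measured genes were not called. Hoxd8 and Hoxd9 were well above the limit: Hoxd8, a trunk gene, ran from 10.18 to 10.36 and was not called (0.094 ± 0.063, adjusted p = 0.237). Hoxd9, a gene of the lumbar level and limbs, stood in control cells at 9.42 and 9.58 without GH and 9.71 and 9.60 with GH, and in null cells at 9.77 and 9.70 without GH and 9.07 and 9.45 with GH. The averaged difference was -0.081 ± 0.086 and not called, but with GH the gene was lower in null cells by limma, at -0.40 ± 0.12 (adjusted p = 0.0176), a call lost without control GH replicate 2 (adjusted p = 0.0935) or null GH replicate 2 (0.213).

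The last HoxD genes, which shape limb and genitalia, were near the limit. Hoxd10 gave 6.03 and 6.098 (control, no GH), 5.94 and 6.38 (control, GH), 4.98 and 4.68 (null, no GH) and 4.89 and 4.36 (null, GH). Its null arrays were dim, and its control arrays lay on both sides of the limit in each GH state. The control mean was dim without GH (6.06) and above the limit with GH (6.16). Averaged over the GH states it passed the limit by 0.014, and the gene was called lower (adjusted p = 8.13e-07). By GH state, a direction is read with GH alone (adjusted p = 1.30e-05). Hoxd11 read 6.60 and 6.73 in control cells without GH, 6.52 and 6.86 with GH, 6.07 and 6.08 in null cells without GH, and 5.87 and 5.88 with GH. Its control arrays were above the limit and its null arrays below it (adjusted p = 6.14e-06). Hoxd13, needed for digits, stood in control cells at 7.14 and 6.83 without GH and 6.76 and 7.02 with GH, and in null cells at 6.59 and 6.45 without GH and 6.30 and 6.52 with GH. The genotypes did not overlap, and null minus control was -0.47 ± 0.091 (SE, limma adjusted p = 0.000689). A second probe set of Hoxd13 averaged 7.13 in control cells and was dim in null cells. Hoxd1, Hoxd3 and Hoxd12 were dim in both genotypes, with arrays of 4.15 to 4.504, 5.09 to 5.99 and 5.65 to 6.06.

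Read by paralog number, some numbers moved the same way in every cluster measured and others did not. Of the 10 genes numbered 1 to 4, 7 were above the limit in both genotypes, 3 of these higher (all of HoxA) and 4 lower (all of HoxB and HoxC), with a median difference of -0.40. All 9 genes numbered 5 to 8 were above it, 6 higher and 1 (Hoxc5) lower, with a median of 0.37. Of the 14 numbered 9 to 13, 7 were above it, 1 (Hoxa9) higher and 4 lower, with a median of -0.47, and 5 more were lower and dim in null cells. Of the 4 lower and above the limit, Hoxa11 and Hoxd13 lay near it. Among those numbered 1 to 4 and above the limit, Hoxa4, Hoxb2 and Hoxb4 were called without GH alone and Hoxc4 with GH alone. The 3 measured paralogs of number 10, Hoxa10, Hoxc10 and Hoxd10, were all called lower, as were both of number 11. Among the 4 of number 9 the clusters differed: Hoxa9 was higher, Hoxb9 and Hoxc9 were lower and Hoxd9 was not called. Over all genes 27.7% were called higher and 26.8% lower, and the median difference was 0.0078. When only changes of at least 1.5-fold were tested (limma's treat), 8 of the 33 HOX genes were called, against 15.7% of all genes. Hoxa7, Hoxb5 and Hoxc8 were higher, 3 of 33, which is near the share of all genes (7.46%). Lower were Hoxa10, Hoxb9, Hoxc9, Hoxc10 and Hoxd10, 5 of 33 (8.28% of all genes). Of these Hoxa10, Hoxc10 and Hoxd10 were dim in null cells, so their size is not read. Each of the 3 that were higher carries a number from 5 to 8. Members with several probe sets had 15 others: 7 were called in the same direction as the brightest, 0 in the opposite, 7 were not called where the brightest was, and 1 was not called along with it.

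Both GH states gave the same direction wherever a gene was called in both. Without GH 22 HOX genes were called (66.7%, against 47.5% of all genes), 10 higher (24.8% of all genes) and 12 lower (22.7%). With GH 23 were called (69.7%, against 45.3% of all genes), 8 higher (22.2%) and 15 lower (23.1%). In both states 8 genes were called higher (18.4% of all genes) and 10 lower (18.5% of all genes), 4 were called without GH alone, 5 with GH alone and 6 in neither. Without GH, calls of Hoxa11, Hoxb3, Hoxd3 and Hoxd13 were lost on leaving out control replicate 2 or 3 or null replicate 3 (adjusted p from 0.0641 to 0.340, 18 to 22 calls in all). With GH, calls of Hoxb6, Hoxd1, Hoxd9 and Hoxd13 were lost on leaving out 1 of the 4 arrays or another (adjusted p from 0.0571 to 0.213, 19 to 23 calls in all). The other genes called in these comparisons kept their calls without any 1 array.

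**Figure D3:**
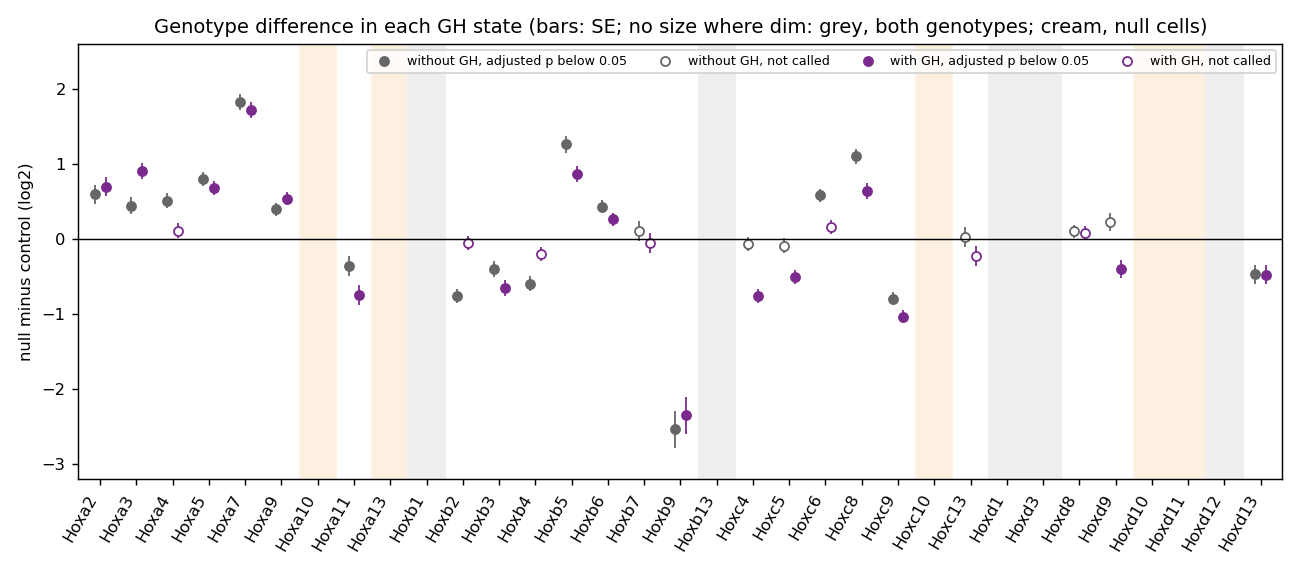
Log2 difference null minus control (y axis) without GH (grey) and with GH (purple) for the HOX genes in cluster order, with limma's SE as bars, 2 arrays a group, filled where the adjusted p was below 0.05. No size is drawn where a gene was dim in null cells (cream) or in both genotypes (grey band). Hoxa7 and Hoxb9 were called in both states, and Hoxb2 and Hoxc4 differ in 1 state alone.

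GH itself changed few HOX genes. In control cells Hoxc4 and Hoxc6 were called higher after 2 h, by 0.49 ± 0.091 (adjusted p = 0.0109) and 0.41 ± 0.090 (adjusted p = 0.030), which is 2 of 33 genes (6.06%, against 2.62% of all genes in either direction, 1.72% higher and 0.896% lower). At an unadjusted p below 0.05, 5 HOX genes were higher and 1 lower. The call of Hoxc4 was lost without control no-GH replicate 2 (adjusted p = 0.0739) or control GH replicate 3 (0.141), and that of Hoxc6 without any 1 of the 4 control arrays (0.0657 to 0.196). Leaving out 1 control array left 0 or 1 call, with 6 genes at an unadjusted p below 0.05 in limma where it left 0, which was without control GH replicate 3.

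In null cells 4 HOX genes were called (12.1%, against 11.7% of all genes), 2 higher (5.36% of all genes) and 2 lower (6.35%). Hoxb2 rose by 0.58 ± 0.096 (adjusted p = 0.00227) and Hoxa3 by 0.57 ± 0.11 (adjusted p = 0.00555), while Hoxd9 fell by 0.47 ± 0.12 (adjusted p = 0.0262) and Hoxd12 was dim. This share is near that of all genes. Hoxb2 kept its call without any 1 array. Hoxa3 lost it without null no-GH replicate 2 (adjusted p = 0.0523) or null GH replicate 3 (0.0597), Hoxd9 without null no-GH replicate 2 or 3 or null GH replicate 2 (0.0766 to 0.228), and the count fell to 1 or 2 without any 1 of the 4 null arrays. It rose to 6 without control no-GH replicate 2 or 3.

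The response to GH differed between genotypes, by the interaction term, in Hoxb2 and Hoxc4 (2 of 33, 6.06%, against 5.16% of all genes), 1 upwards (2.83% of all genes) and 1 downwards (2.33%). For Hoxb2 the change with GH was 0.71 ± 0.14 larger in null cells (adjusted p = 0.0101). For Hoxc4 it was 0.69 ± 0.13 smaller in null cells (interaction -0.69, adjusted p = 0.0087). Without null GH replicate 3 the Hoxb2 term was 0.61 (adjusted p = 0.0581), without null GH replicate 2 the Hoxc4 term was -0.63 (0.0553). The count was 1 without null GH replicate 2, 2 without null GH replicate 3 and 4 without control no-GH replicate 2. The comparisons of genotype and of GH share arrays, so their values are not independent of each other.

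The TALE genes, whose proteins bind DNA with HOX proteins, were all higher in null cells. Of the 8 measured, 8 were called higher over the averaged GH states, against 27.7% of all genes, with a median difference of 0.76. Pknox2 gave 6.67 and 6.66 (control, no GH), 6.94 and 6.76 (control, GH), 8.13 and 8.34 (null, no GH) and 8.29 and 7.99 (null, GH). It rose by 1.43 ± 0.083 (adjusted p = 1.52e-08), or 2.70-fold. Its other, dimmer probe set gave 0.16 and was not called (limma adjusted p = 0.116 over all probe sets). Meis2 read 9.63 and 9.64 in control cells without GH, 9.56 and 9.76 with GH, 11.18 and 11.17 in null cells without GH, and 10.82 and 10.94 with GH. It rose by 1.38 ± 0.067 (adjusted p = 2.88e-09). Null and control arrays did not overlap in either gene. Another Meis2 probe set gave 0.33 without GH and 2.10 with GH. By that probe set GH raised Meis2 in null cells by 1.64 (limma adjusted p = 7.46e-06 over all probe sets), against -0.29 by the brightest, which was not called. The remaining Meis2 probe sets gave averaged differences of 1.31 and 1.26, and -0.30 and -0.36 for GH in null cells. Meis1, a close partner of HOX proteins of higher number, stood in control cells at 9.51 and 9.67 without GH and 10.01 and 9.99 with GH, and in null cells at 11.11 and 11.36 without GH and 10.64 and 10.47 with GH. It rose by 1.10 ± 0.076 (adjusted p = 7.45e-08), and Pknox1 rose by 0.98 ± 0.066 (adjusted p = 5.66e-08). Meis3 rose by 0.53 ± 0.070, Pbx3 by 0.49 ± 0.077, Pbx2 by 0.46 ± 0.062 and Pbx4 by 0.32 ± 0.069, with adjusted p from 2.67e-05 to 0.0016. Without GH all 8 were called higher (24.8% of all genes), and with GH all but Pbx3 (22.2% of all genes). Without GH the call of Pbx4 was lost on leaving out control replicate 3 or null replicate 2 or 3 (adjusted p from 0.0655 to 0.118). With GH the call of Pbx2 was lost without control replicate 2 or 3 or null replicate 3 (0.0543 to 0.0981), and that of Pbx4 without either replicate 3 (0.102 and 0.114). Of 12 other probe sets of these genes 9 were called higher, 0 lower and 3 not called. Of the 2 other Meis1 probe sets, 1 was called lower without GH (-0.25, adjusted p = 0.0379 over all probe sets) and higher with GH (1.07, averaged 0.41), and 1 was not called (0.045). The direction of Meis1 without GH thus differed between its probe sets.

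**Figure D4:**
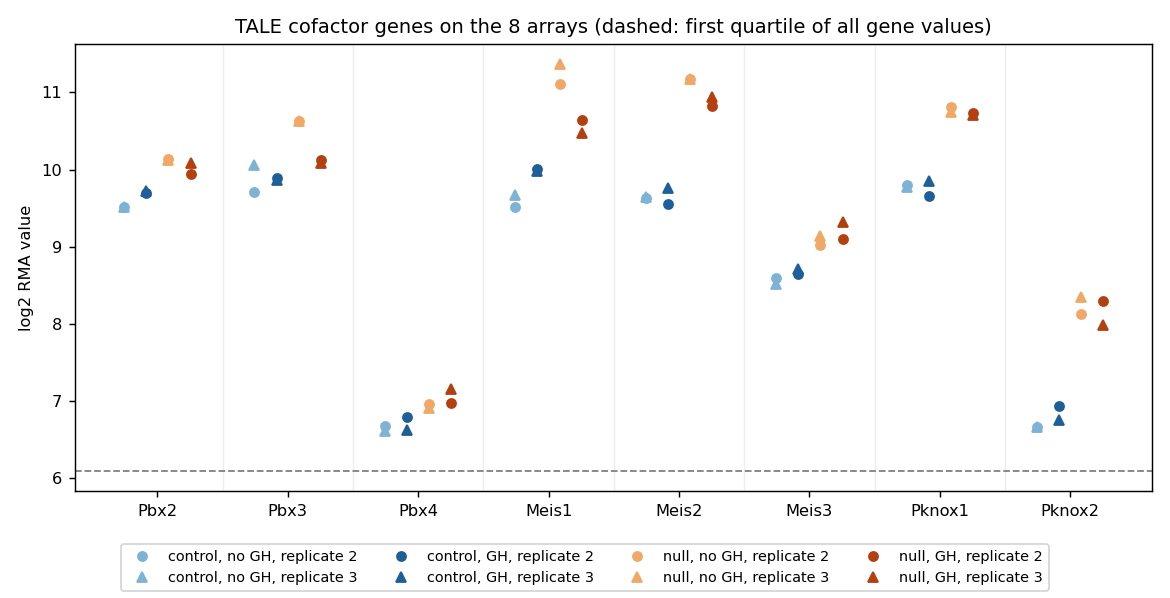
Deposited log2 values of the 8 measured TALE cofactor genes on the 8 arrays, with colours for the 4 groups, symbols for replicates 2 and 3 and the dim limit of 6.097 as a dashed line. In every gene the 4 null arrays (orange and red) lie above the 4 control arrays (blue), with the widest separations at Pknox2 and Meis2.

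Regulators of the clusters moved in both directions. Of 21 measured Polycomb genes 8 were higher and 4 lower (57.1%, against 54.6% of all genes), with a median of 0.046. Phf1, which helps recruit the Polycomb repressive complex that methylates histone H3, rose by 1.21 ± 0.065 (limma adjusted p = 6.96e-09), and Pcgf2, a subunit of the complex that ubiquitinates histone H2A, rose by 1.07 ± 0.085 (adjusted p = 2.70e-07). Of 11 Trithorax and H3K27 demethylase genes 7 were higher and 2 lower (81.8%), with a median of 0.49, among them Dpy30, a shared subunit of H3K4 methyltransferases, which rose by 1.07 ± 0.087 (adjusted p = 3.51e-07). Of 11 CDX, retinoic acid receptor and other inducer genes 3 were higher and 1 lower (36.4%), and none changed by 2-fold. Of 20 genes flanking the clusters 5 were higher and 4 lower (45%), among them Calcoco1 (1.28 ± 0.064) and Cbx5 (1.05 ± 0.074) beside HoxC, both higher, and Snx11 (-1.002 ± 0.078) beside HoxB, which was lower.

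HoxB lies on the same chromosome as Stat5a and Stat5b, as the gene table shows. Of 165 protein-coding genes between them 122 were measured, and 24 were called higher and 26 lower (41%, against 54.6% of all genes), with a median difference of -0.011.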

How the data were processed

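RNA was measured on 8 Affymetrix mouse arrays. The authors deposited log2 values of 45101 probe sets, made with Partek 6.10.0511 and RMA per the submitters' processing notes. RMA corrects background, equalises the arrays' distributions and summarises probes, so levels compare between arrays and not between genes; its settings are not stated. For arrays, their number limits the precision.

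Groups and replicate numbers came from the titles; 1 null array without GH has source number 3 and title number 2, and the title was used. Probe sets with 1 annotated gene were kept (34945), symbols were updated through the GRCm38.p6 gene table (34741 matched), and the brightest probe set stood for a gene. limma 3.58.1 (R 4.3.3) was fitted to all 18193 genes with 1 mean per group (residual degrees of freedom 4), with Benjamini-Hochberg adjustment over all genes in each comparison; calls are adjusted p below 0.05, and every printed adjusted p and SE is limma's. The fit was tested on simulated data.

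Members and gene lists were chosen with earlier results of these data known. All HOX genes are described; of other lists, the text names genes called in the averaged genotype comparison with a difference of at least 1 that are not dim in both genotypes, at most 4 a list, all TALE genes, Stat5a and Stat5b. Alternatives are in the closing section.

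Arrays of the same replicate number did not deviate together (correlations -0.28 to 0.13), so the numbers were not used to pair arrays.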

Additional observations from a re-analysis of the deposited data

Results flagged for a closer look

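The interaction term of the limma fit, the difference in response to GH between control and null cells, was called for 5.16% of all genes, among them the 5 genes named in the text that follow. Hoxb2 had an interaction of 0.71 ± 0.14 (SE, adjusted p = 0.0101): GH raised it in null cells and not in control cells. Hoxc4 had -0.69 ± 0.13 (adjusted p = 0.0087): GH raised it in control cells, and the change in null cells was not called. Meis1, the HOX cofactor gene, had -1.09 ± 0.15 (adjusted p = 0.00133), but its probe sets disagreed: the brightest gave -0.68 for GH in null cells and another gave 0.84. Pdgfra, a fibroblast receptor gene, had -0.77 ± 0.16 (adjusted p = 0.0146). Tbx1, a pharyngeal transcription factor gene, was called too (limma adjusted p = 0.0159). It was dim in null cells in both GH states, so neither the size nor the direction of its term is read.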

How the results depend on the processing

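The 26 calls of the averaged comparison, the 22 without GH and the 23 with GH stayed within 1.5 times of their counts under every alternative run except a test for changes of at least 1.5-fold, which left 8, 7 and 7. That test left 0 calls for GH in either genotype and for the interaction, and 0 genes at an unadjusted p below 0.05 in limma. For GH in control cells (2 calls) the mean of a gene's probe sets gave 1, a fit to the control arrays alone 0 (6 at an unadjusted p below 0.05) and an adjusted p below 0.01 gave 0. That stricter threshold left 2 of the 4 calls with GH in null cells and 1 interaction call, and a variance trend gave 5 for the interaction. With the replicate number as a block the calls were 21, 23, 26, 1, 4 and 2, against 22, 23, 26, 2, 4 and 2 for null against control without GH, with GH and averaged, GH in control cells, GH in null cells and the interaction. Leaving out 1 array gave 18 to 22, 19 to 23, 25 to 26, 0 to 2, 1 to 6 and 1 to 4. With the median of all genes (8.04) as the dim limit, 17 HOX genes in place of 28 passed in at least 1 group, 17 and 17 in control cells without and with GH and 15 and 15 in null cells. With the mean of its probe sets the Meis1 change with GH in null cells was 0.087 and its interaction 0.14, both reversed. Apart from settings that test fewer arrays or a larger change, the cause was not tested.

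Genes near the dim limit (Hoxa10, Hoxa11, Hoxa13, Hoxb7, Hoxc13, Hoxd10, Hoxd11 and Hoxd13) rest on low signal. So does the null level of Hoxb9 (mean 6.95).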

Other observations

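Positional transcription factor genes outside the HOX clusters also differed, in both directions. Of 48 measured, 12 were higher and 17 lower in null cells (60.4%, against 54.6% of all genes), with a median difference of -0.015. Hand2, a limb and heart gene, averaged 8.54 in control cells and was dim in null cells, and Tbx1 averaged 7.42 and was dim in null cells. En1, a gene of limb ectoderm, dermis and midbrain, fell by 1.67 ± 0.069 (SE, limma adjusted p = 6.08e-10), with control arrays at 7.99, 8.04, 8.13 and 8.11 and null arrays at 6.05, 6.28, 6.59 and 6.66. Gata6, a gene of heart and endoderm, rose by 1.498 ± 0.066 (adjusted p = 1.14e-09), with control arrays from 8.44 to 8.83 and null arrays from 10.01 to 10.36.

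Antisense transcripts of the clusters, chosen after their values were seen, were measured for 3 genes. Hoxd3os1 fell by 2.05 ± 0.12 (adjusted p = 1.58e-08) from a control mean of 8.41 to 6.36, where Hoxd3 itself was dim in both genotypes. Hoxb5os rose by 0.56 ± 0.082 (adjusted p = 7.32e-05), and Hoxb5 rose too. Hoxa11os was dim in both genotypes. Whether a probe set can tell an antisense transcript from its overlapping partner was not tested.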
